A study of Rattus norvegicus with 20 samples.

Results

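Granule and cytosolic proteins of granulocytes and basophils were measured in whole femur RNA of 4 related rat strains through 10 genes: Mpo, Camp, Ltf, Ngp, S100a8, S100a9, Fcnb, Ctsg, Mcpt8 and Stfa2l2. A probe set was taken only where the array's probe-gene table gave it exactly 1 of these symbols. That found 6 probe sets for 6 of the 10 genes, out of 31042 non-control probe sets. The genes were S100a8, S100a9, Camp, Fcnb, Mcpt8 and Stfa2l2, with 1 probe set each. Mpo, Ltf, Ngp and Ctsg matched no probe set by that rule and were not analysed here. All 6 probe sets passed the filter on dim signals and were among the 18625 probe sets tested.

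Each strain was represented by 5 rats aged 4 weeks, with 1 Affymetrix array per rat. The strains were NP.P, a congenic strain with the P segment 4q22-q34 of chromosome 4 in otherwise NP rats, P.NP, the reciprocal strain with the NP segment in otherwise P rats, P, the inbred strain selected to prefer alcohol, and NP, the inbred strain selected against that preference. A congenic strain differs from its background strain by the transferred segment and whatever flanking DNA came with it, and no rat was treated. The tissue was femur, given in the labels as its proximal end, and it was extracted with its marrow, so hematopoietic and bone cells contributed RNA together. Sex is not given in the labels for the rats used for RNA.

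Neutrophils store antimicrobial proteins in granules that form one after another as the cell matures in the marrow, so azurophil granule genes, specific granule genes and late cytosolic genes mark successive stages. Basophils and mast cells hold granules of another kind, filled with serine proteases, histamine and proteoglycans. Many neutrophil granule transcripts are made mostly in the marrow and decline in mature cells of the blood, which makes them abundant in RNA from whole bone.

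The measured genes differ in where their products act. S100a8 and S100a9 encode calcium-binding proteins that pair to form calprotectin, the main protein of neutrophil cytosol. Camp encodes cathelicidin, an antimicrobial peptide precursor of specific granules, and Fcnb encodes ficolin B, a lectin of the complement system made by myeloid cells. Stfa2l2 is annotated as a member of the stefin A family, cytosolic inhibitors of cysteine cathepsins that in mice are abundant in neutrophils. Mcpt8 encodes a granule serine protease that in mice marks basophils.

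None of the 6 genes lies on chromosome 4, where the transferred segment is. In GRCr8 S100a8 lies at chr2:178464095-178465223 and S100a9 at chr2:178487941-178490622, within a cluster of S100 genes. Camp lies at chr8:118720184-118721998, Fcnb at chr3:31791750-31800188, Mcpt8 at chr15:33769575-33772633 and Stfa2l2 at chr11:78003490-78005912. Stfa2l2 stands among other stefin A genes, including Stfa2, Stfa2l1, Stfa2l3 and Stfa3, and Mcpt8 stands beside Mcpt8l2, Mcpt8l3, Mcpt9, Mcpt1 and Mcpt10. Transcripts of near-identical neighbours could hybridize to the probe sets of these genes, so the signals of Stfa2l2 and Mcpt8 are uncertain to that extent; the share was not tested.

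The 150 bases before the start used in the promoter table (RefSeq, GRCr8) are printed here for 4 genes. Their signals separated at least 1 congenic strain from its background strain. The upstream DNA of Camp, Fcnb and Stfa2l2 can thus be set beside that of Mcpt8, the basophil protease gene. Capitals mark matches to the C/EBP letters TTNNGNAA on either strand, the only capitals used.
Camp, chr8:118721999-118722148, minus strand: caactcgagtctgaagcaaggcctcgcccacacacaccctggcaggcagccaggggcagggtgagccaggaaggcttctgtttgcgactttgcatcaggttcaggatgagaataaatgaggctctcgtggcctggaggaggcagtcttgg
Fcnb, chr3:31800189-31800338, minus strand: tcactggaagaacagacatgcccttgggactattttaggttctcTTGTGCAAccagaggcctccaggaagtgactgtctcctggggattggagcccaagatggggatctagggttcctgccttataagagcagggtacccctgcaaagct
Stfa2l2, chr11:78003340-78003489, plus strand: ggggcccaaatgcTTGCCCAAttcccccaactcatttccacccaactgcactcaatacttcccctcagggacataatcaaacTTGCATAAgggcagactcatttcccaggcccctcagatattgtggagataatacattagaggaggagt
Mcpt8, chr15:33769499-33769648, plus strand: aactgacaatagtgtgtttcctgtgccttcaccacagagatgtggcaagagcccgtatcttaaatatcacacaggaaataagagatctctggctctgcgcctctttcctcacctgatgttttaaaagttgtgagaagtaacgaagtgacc
For Mcpt8 that start lies inside the annotated span of the gene given above, so the last 74 bases of its stretch fall within the span; the stretches of the other 3 genes end where their spans begin.
C/EBP factors act in granulocyte development, and their letters occurred in Fcnb, at 106 to 99 bases before the start, and in Stfa2l2, at 137 to 130 and at 68 to 61 bases before it. Stretches of this length held the letters in 23.3% of 33469 rat promoters. The letters GATAAG, bound by GATA factors of mast cells and basophils, occurred in none of the 5 measured genes with a promoter in the table and in 3.66% of all promoters. GAGGAA, the core bound by PU.1, occurred in Mcpt8 alone, at 46 to 41 bases before the start used and thus within the annotated span, and in 14.5% of all promoters, and TGTGGT, the RUNX letters, occurred in S100a9 and Mcpt8 and in 8.38%. TATAAA, the TATA box, occurred in S100a9 only and in 8.0%. Both strands were searched, the matches given here did not overlap one another, and a match is a description of the letters only.

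The values deposited by the authors are MAS5 signals, linear intensities scaled to a common level on every array, and differences are given as log2 differences with their standard error (SE). Array medians lay between 291.9 and 322.3, GAPDH 3′/5′ ratios between 1.03 and 1.15 and actin 3′/5′ ratios between 1.85 and 2.39. All P arrays had GAPDH ratios, 1.107 to 1.147, above those of all P.NP and NP.P arrays, 1.074 to 1.099. NP arrays, at 1.032 to 1.126, overlapped both ranges. The part of this difference in the comparisons with P rats was not tested. A call means an adjusted p under 0.10 from limma, with Benjamini-Hochberg adjustment over the 18625 probe sets. Nothing in the labels says more of the replicates than that each is a separate sample, and the number of arrays limits the precision. In whole bone, fewer cells of a type and less RNA per cell cannot be told apart.

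S100a8 and S100a9, the calprotectin genes, gave the brightest signals of the 6 genes on every array, where the brightest probe set of an array reached 76834 or more. S100a8 signals were 33052, 32269, 35525, 29188 and 34371 in NP.P rats, 34379, 35845, 43689.7, 34209 and 30029.6 in P.NP rats, 42170.4, 37919, 37548, 44014 and 40699 in P rats and 34307, 37250.5, 40939, 36878 and 37888 in NP rats. Both congenic strains overlapped their background strains, while all 5 P arrays were above all 5 NP.P arrays. S100a9 signals were 60724, 58379, 66120, 55269.6 and 64224.5 in NP.P rats, 64881, 63037, 68604, 55839.7 and 54057 in P.NP rats, 65074, 63246, 66830.2, 73766 and 68382 in P rats and 55369, 74861, 68844, 68291 and 64730.2 in NP rats. All pairs of strains overlapped for S100a9, and its F test over the 4 strains did not pass (adjusted p = 0.435), nor did that of S100a8 (adjusted p = 0.103).

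Camp, the cathelicidin gene, had its lower means in the congenic strains. Its signals were 12816, 12267, 13588, 11419 and 13675 in NP.P rats and 15354, 16713, 17847, 16314.5 and 15671 in NP rats. Every NP.P array lay below every NP array. The same gene measured 11309.6, 12109, 16605, 11128 and 10684 in P.NP rats and 17437, 13137, 12792, 16053 and 16219 in P rats. All P.NP arrays except the third were below all P arrays. The third, at 16605, was above every other P.NP array, every NP.P array and 4 of the 5 P arrays.

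**Figure D1:**
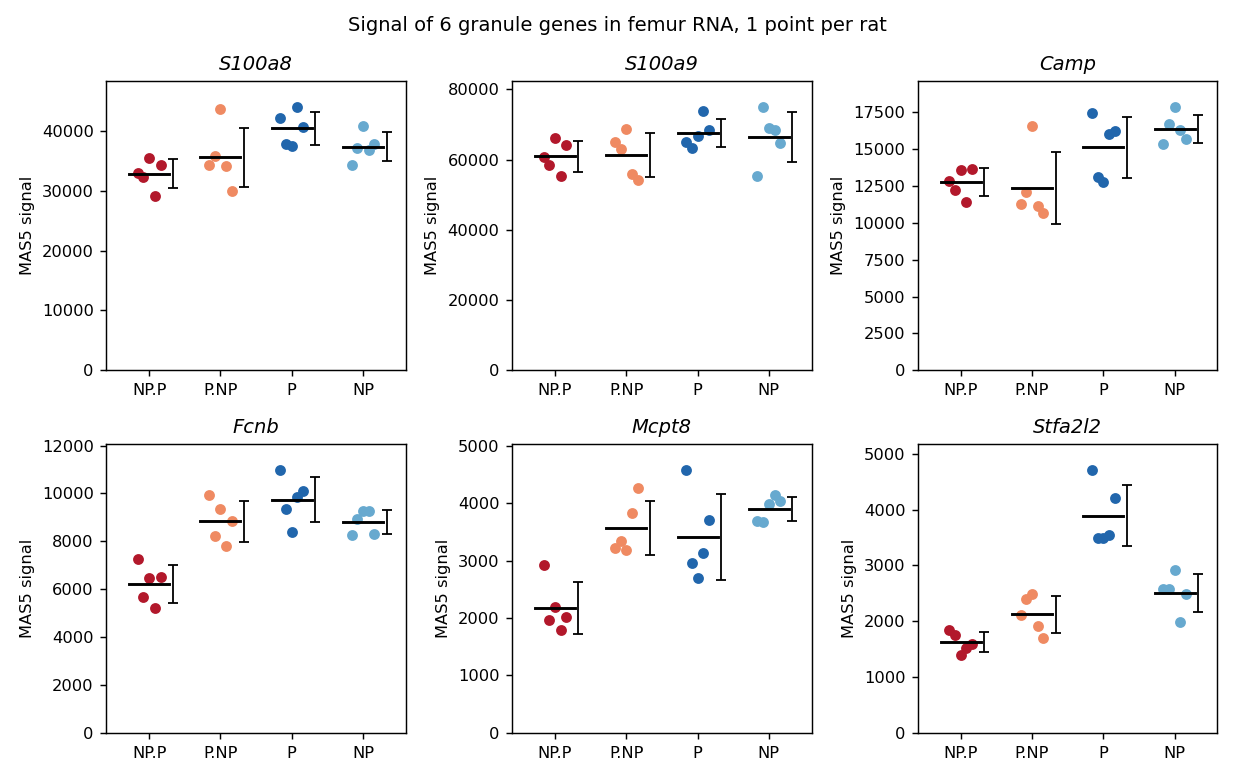
MAS5 signal on a linear axis from 0 for the 6 genes, with 1 point per rat, a line at each strain's mean and an error bar of 1 SD (n = 5). Fcnb and Mcpt8 are lowest in NP.P rats, while Stfa2l2 is highest in P rats, where its 5 arrays lie between 3485 and 4707, above all other arrays.

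Fcnb, the ficolin B gene, stood apart in a single strain. It gave signals of 7258, 5658, 6451, 5215 and 6495 in NP.P rats, against 8258, 8952, 9257, 9288 and 8305 in NP rats. It gave 9938, 8234, 9351, 7810.1 and 8851 in P.NP rats, against 10980.2, 9338, 8409.5, 9865 and 10124 in P rats. The 5 NP.P arrays lay below all 15 arrays of the other strains, and those 15 overlapped one another.

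Mcpt8, the basophil protease gene, was likewise lowest in NP.P rats. Its NP.P signals were 2929, 1957, 2192, 1784.5 and 2011, against 3684, 3677, 3977, 4132.5 and 4042.5 in NP rats. P.NP rats gave 3219, 3339.8, 3188, 3830 and 4256 and P rats gave 4576, 2952, 2702, 3129 and 3706. The NP.P arrays were below all NP and all P.NP arrays, but the first of them, at 2929, lay within the range of the P arrays. Mcpt8 was tightly grouped in NP rats (coefficient of variation 5.38%) and spread in NP.P (20.5%) and P rats (21.9%).

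Stfa2l2, the stefin gene, separated the parental strains as well. Signals were 1846, 1749, 1401, 1521 and 1593.5 in NP.P rats and 2584, 2569, 2916, 1981 and 2483 in NP rats. In P.NP rats they were 2105, 2395, 2489, 1912 and 1703, and in P rats 4707, 3485, 3494, 3552 and 4205. No NP.P array reached the lowest NP array, no P.NP array reached the lowest P array, and the P arrays stood above all 15 others.

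The first comparison set the P segment on the NP background against the NP background alone. In NP.P rats 3 of the 6 genes were called, all lower than in NP rats, against 1.49% of all tested probe sets called lower and 2.3% called in either direction. Mcpt8 averaged 2175 ± 446 in NP.P rats and 3903 ± 210 in NP rats (SD, n = 5 each), a log2 difference of -0.86 (SE 0.14, limma adjusted p = 0.00526). Stfa2l2 averaged 1622 ± 177 in NP.P rats and 2507 ± 337 in NP rats, a log2 difference of -0.62 (SE 0.12, limma adjusted p = 0.0235). Fcnb averaged 6216 ± 796 in NP.P rats and 8812 ± 502 in NP rats, a log2 difference of -0.51 (SE 0.09, limma adjusted p = 0.0141). As folds, NP.P signals were 1.82 times lower for Mcpt8, 1.54 times lower for Stfa2l2 and 1.43 times lower for Fcnb. The unequal-variance test of the study's methods called none of these 3 genes (adjusted p = 0.213 for Mcpt8, 0.183 for Stfa2l2 and 0.224 for Fcnb).

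The other 3 genes had negative differences that did not pass. Camp averaged 12753 ± 944 in NP.P rats and 16380 ± 978 in NP rats, and its arrays did not overlap, but the log2 difference of -0.36 (SE 0.11) had a limma adjusted p of 0.132. It passed with quantile normalization of the arrays (-0.42, adjusted p = 0.0881), and with a filter at the 60th percentile (adjusted p = 0.0793), a mean-variance trend (adjusted p = 0.0756) or without the third P.NP array (adjusted p = 0.0641). S100a8 differed by -0.19 (SE 0.09, adjusted p = 0.361) and S100a9 by -0.12 (SE 0.09, adjusted p = 0.607). Over the 6 genes the median log2 difference was -0.44, against -0.01 over all tested probe sets, and 4 of the 6 had every NP.P array below every NP array, as did 1.96% of all tested probe sets.

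The reciprocal transfer, of the NP segment onto the P background, gave 1 gene past the threshold. Stfa2l2 averaged 2121 ± 328 in P.NP rats and 3889 ± 548 in P rats, a log2 difference of -0.88 (SE 0.12, limma adjusted p = 0.0044), with every P.NP array below every P array, as in 0.907% of all tested probe sets. That is 1 of 6 genes called, lower, where 0.118% of all tested probe sets were called lower and 0.231% in either direction. By its limma p value Stfa2l2 ranked 4 of 18625 in this comparison. With the unequal-variance test of the study's methods it was not called (adjusted p = 0.277).

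None of the remaining genes passed between P.NP and P rats. Camp averaged 12367 ± 2424 in P.NP rats and 15128 ± 2049 in P rats, a log2 difference of -0.30 (SE 0.11, adjusted p = 0.483), and without the third P.NP array the difference was -0.41 (adjusted p = 0.136). S100a8 differed by -0.19 (adjusted p = 0.617), S100a9 by -0.14 (adjusted p = 0.762) and Fcnb by -0.14 (adjusted p = 0.807). Mcpt8, the gene with the largest difference of the 6 between NP.P and NP rats, averaged 3567 ± 464 in P.NP rats and 3413 ± 748 in P rats, with a log2 difference of 0.08 and a 95% interval of -0.21 to 0.37. The median over the 6 genes was -0.17, against 0.00 over all tested probe sets.

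The 2 congenic comparisons share no arrays. In both, the congenic strain had the lower mean for 5 of the 6 genes (83.3%), as it did for 4717 of the 18625 tested probe sets (25.3%). Mcpt8 was the exception.

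Between the parental strains 1 of the 6 genes was called, where 2.43% of all tested probe sets were called higher and 5.36% in either direction. Stfa2l2 was higher in P than in NP rats, by 0.63 on the log2 scale (SE 0.12, limma adjusted p = 0.00392), with every P array above every NP array, as in 2.03% of all tested probe sets. Fcnb differed by 0.14 (adjusted p = 0.492), S100a8 by 0.11 (adjusted p = 0.569) and S100a9 by 0.03 (adjusted p = 0.909), while Camp differed by -0.12 (adjusted p = 0.631) and Mcpt8 by -0.22 (adjusted p = 0.472). This comparison shares its P arrays with the P.NP comparison and its NP arrays with the NP.P comparison.

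**Figure D2:**
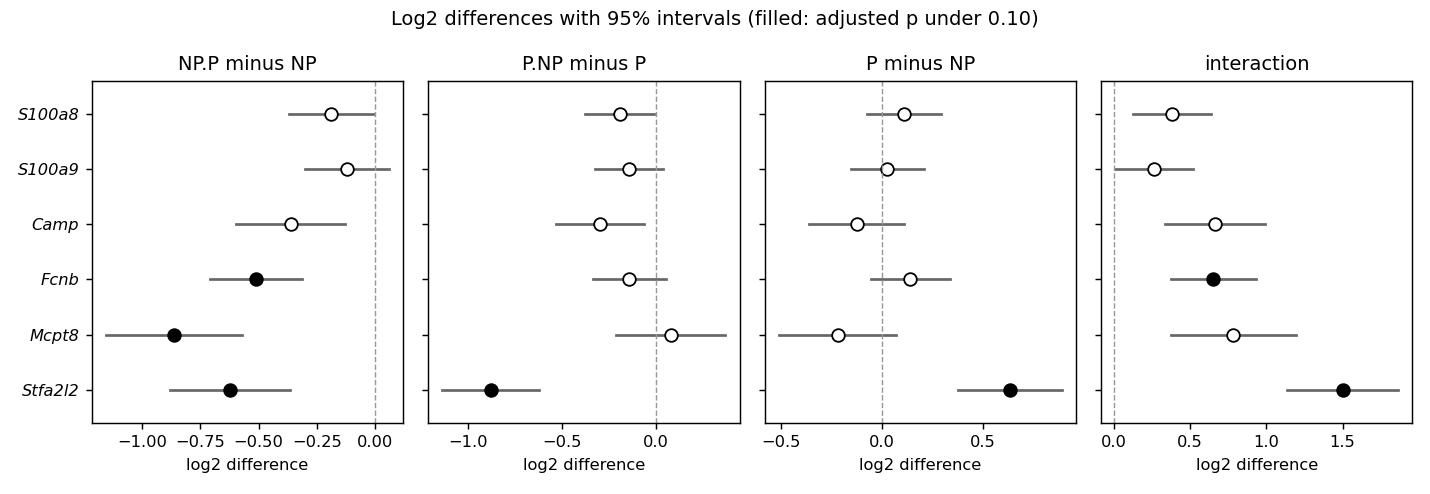
Log2 difference (points) with its 95% interval (bars) for each gene in 3 comparisons of 2 strains and in the interaction of the segment with the background, with filled points for an adjusted p under 0.10. The horizontal axes differ between panels. Stfa2l2 is filled in all 4 panels, at -0.62, -0.88, 0.63 and 1.50. Mcpt8 is filled in the NP.P comparison, and Fcnb in the NP.P comparison and in the interaction.

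The design also allows a test of whether the difference that goes with the P segment was the same on both backgrounds. The same contrast sets the inbred strains against the congenic strains. A segment difference that depends on the background therefore cannot be told apart from anything the congenic strains share. The interaction, P minus P.NP less NP.P minus NP, was called for 2 of the 6 genes, against 0.317% of all tested probe sets (0.204% in the positive direction). For Stfa2l2 it was 1.50 on the log2 scale (SE 0.17, limma adjusted p = 0.0011), the smallest p of all 18625 probe sets. The P segment accompanied a higher Stfa2l2 signal on the P background and a lower one on the NP background, so that the difference averaged over both backgrounds was 0.13 (adjusted p = 0.63). Fcnb had an interaction of 0.65 (SE 0.13, adjusted p = 0.0667), a call that was lost without any 1 of 10 arrays.

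The interactions of the other genes had the same sign. A positive interaction means that the inbred strains together lay above the congenic strains. This sign is thus not a separate observation from the lower congenic means given above. Mcpt8 gave 0.78 (SE 0.20, adjusted p = 0.137), Camp 0.66 (SE 0.16, adjusted p = 0.123), S100a8 0.38 (adjusted p = 0.292) and S100a9 0.26 (adjusted p = 0.497). All 6 had a positive interaction with an unadjusted p under 0.05, as did 6.08% of all tested probe sets. The median was 0.66, against 0.01 over all tested probe sets.

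Averaged over both backgrounds, strains with the P segment had a lower signal of 1 gene of the 6, with 0.408% of all tested probe sets called lower and 0.886% in either direction. That gene was Mcpt8, at -0.47 (SE 0.10, adjusted p = 0.0378). The average came mostly from the NP background. Mcpt8 differed by -0.86 in NP.P minus NP (limma adjusted p = 0.00526). In P.NP minus P it differed by 0.08 and was not called (limma adjusted p = 0.964). Its interaction of 0.78 did not pass either (limma adjusted p = 0.137). The background contrast, P.NP and P rats against NP.P and NP rats, called 3 genes higher on the P background, against 11.1% of all tested probe sets called higher and 22.5% in either direction. These were Stfa2l2 (0.51, adjusted p = 0.000484), Fcnb (0.33, adjusted p = 0.00212) and Mcpt8 (0.25, adjusted p = 0.0866). The Mcpt8 call was lost without any 1 of 12 arrays and without a filter (adjusted p = 0.16). All 3 genes were called higher in P and in P.NP rats than in NP.P rats. Against NP rats only Stfa2l2 was called, higher in P rats. The differences of P.NP from NP rats were -0.24 for Stfa2l2, 0.00 for Fcnb and -0.14 for Mcpt8. In the background contrast Camp, S100a8 and S100a9 differed by -0.09, 0.11 and 0.02 and were not called, although S100a8 passed with quantile normalization (0.18, adjusted p = 0.0542).

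Markers of other cells differed in the background contrast too, in which 11.3% of all tested probe sets were called lower and 11.1% higher. All 10 erythroid genes were called lower on the P background (median -0.25), and so were all 3 eosinophil genes, Epx, Prg2 and Alox15 (median -0.93). Of 6 megakaryocyte and platelet genes 3 were lower and 1 higher, and of 9 macrophage and monocyte genes 4 were lower and 1 higher. Of 8 cell division genes 5 were lower, and of 5 adipocyte genes 3 were lower and 1 higher. Of 11 mast cell and basophil genes other than Mcpt8, 2 were called, both higher, Ms4a2 (0.65, adjusted p = 0.000145) and Mcpt1 (0.54, adjusted p = 0.0174). The part of these cell types in the background calls of Stfa2l2, Fcnb and Mcpt8 was not tested.

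Over the 4 strains at once the F test called 4 of the 6 genes, where 18.2% of all tested probe sets were called. The adjusted p was 6.57e-06 for Stfa2l2, 0.000365 for Fcnb, 0.00109 for Mcpt8 and 0.0355 for Camp. The order of the strains differed between genes. NP.P was lowest in S100a8, S100a9, Fcnb, Mcpt8 and Stfa2l2, and P.NP was lowest in Camp. P was highest in S100a8, S100a9, Fcnb and Stfa2l2, and NP was highest in Camp and Mcpt8.

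Neighbouring strains in these orders were mostly not separated. For Stfa2l2 the order was P, NP, P.NP and NP.P; P.NP and NP did not differ past the threshold (-0.24, adjusted p = 0.27), whereas P.NP was above NP.P (0.38, adjusted p = 0.0475), a call lost without NP.P array 3 (adjusted p = 0.11), P.NP array 2 (adjusted p = 0.112) or P.NP array 3 (adjusted p = 0.116). For Fcnb the P.NP and NP means differed by 0.00 on the log2 scale (adjusted p = 0.997), and P.NP was above NP.P by 0.51 (adjusted p = 0.00112). Mcpt8 ran NP, P.NP, P and NP.P, with P above NP.P by 0.65 (adjusted p = 0.00564) and P.NP not separated from NP (-0.14, adjusted p = 0.617). For Camp, the P.NP and NP.P means differed by -0.06 (adjusted p = 0.775), and P.NP lay below NP (-0.42, adjusted p = 0.0291). S100a8 ran P, NP, P.NP and NP.P, and of its pairs only P and NP.P, the ends of the order, differed past the threshold (0.30, adjusted p = 0.036); every P array was above every NP.P array, as was so for 4.22% of all tested probe sets. S100a9 passed between these strains with quantile normalization only (0.22, adjusted p = 0.0241). Of all tested probe sets, 14.1% were called between P and NP.P rats, 9.58% between P.NP and NP rats and 19.8% between P.NP and NP.P rats.

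The 6 genes did not move by the same amount. The log2 difference of 1 gene was set against that of another on the same arrays with a two-sided exact permutation test over the 252 splits of 10 arrays, for which the smallest p is 0.00794; the 15 pairs in 3 comparisons made 45 tests, adjusted together, and they were chosen after the values had been seen. Between NP.P and NP rats 11 of 15 pairs differed at an adjusted p under 0.10. The difference of Mcpt8 was more negative than that of S100a8 by 0.68 on the log2 scale (SE 0.12, exact adjusted p = 0.0198) and than that of Fcnb by 0.35 (SE 0.07, exact adjusted p = 0.0198). The difference of Camp was more negative than that of S100a8 by 0.17 (SE 0.02, exact adjusted p = 0.0198). Of the 11 pairs, 8 included S100a8 or S100a9, whose signals were the brightest of the 6 genes. Whether their differences were compressed at such signals was not tested. The pairs that did not differ past the threshold were S100a8 with S100a9, and Stfa2l2 with Camp, Fcnb and Mcpt8.

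**Figure D3:**
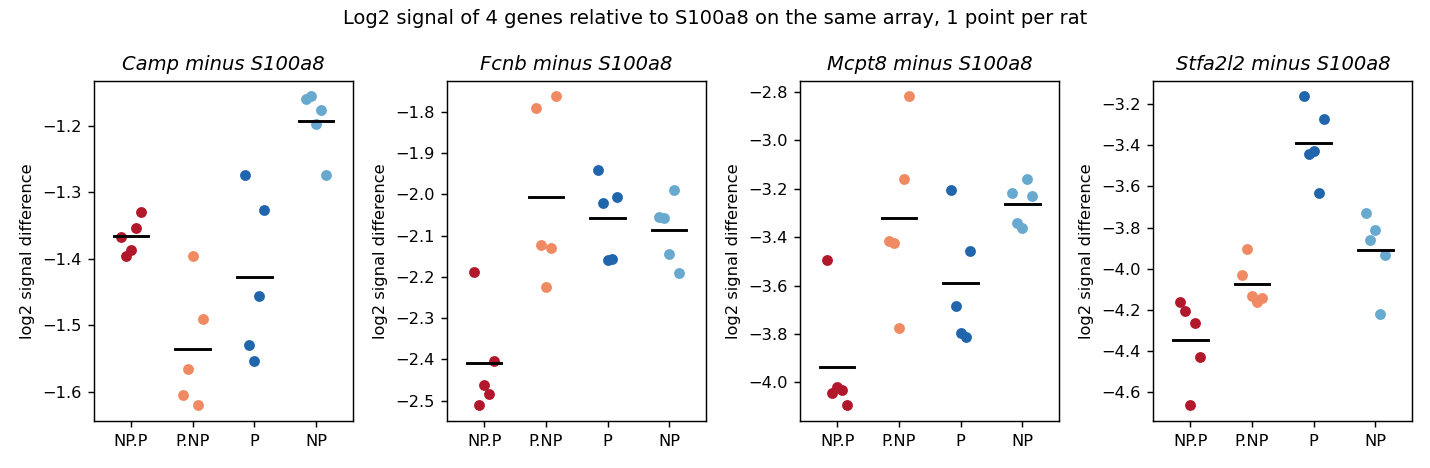
Log2 signal of Camp, Fcnb, Mcpt8 and Stfa2l2 minus that of S100a8 on the same array, with 1 point per rat and a line at each strain's mean. The vertical axes differ between panels and do not start at 0. Fcnb and Mcpt8 are lowest relative to S100a8 in NP.P rats, Camp is highest in NP rats, and Stfa2l2 is highest in P rats.

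Between P.NP and P rats 5 of 15 pairs differed, and each of them included Stfa2l2. Its difference was more negative than that of Mcpt8 by 0.96 (SE 0.19, exact adjusted p = 0.0198) and than those of the other 4 genes by 0.58 to 0.74. Between P and NP rats 9 of 15 pairs differed. Stfa2l2 accounted for 5 of them, and Camp minus Fcnb was -0.26 (SE 0.04, exact adjusted p = 0.0198). S100a8 with S100a9, the 2 calprotectin genes, did not differ past the threshold in any of the 3 comparisons.

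Within strains the genes varied together to different degrees. Deviations of the log2 signals from the strain means were correlated over the 20 arrays as a description; the 2 values of a pair share the array, its labelling and its scaling. S100a8 and Camp had r = 0.90, S100a8 and S100a9 0.75, and S100a9 and Camp 0.61. Fcnb and Mcpt8 had r = 0.59, whereas Mcpt8 had r = 0.04 with S100a8 and -0.14 with S100a9. From rat to rat, the cathelicidin gene thus tracked the calprotectin genes more closely than the basophil protease gene did.

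Genes whose within-strain pattern was most like the mean of the 6 included other granulocyte genes. Pglyrp1, an antibacterial peptidoglycan-binding protein of neutrophil granules, had r = 0.86 over the 20 arrays, and Rab27a, a GTPase of granule exocytosis, had r = 0.84. They were followed by Itm2b (0.83), Cdk10 (0.81), Cklf (0.81), Igsf6 (0.78), Lta4h (0.78), which makes leukotriene B, and Mcpt9 (0.77), another mast cell protease. With the strain differences left in, the list was a different one, led by Gmfg (0.89), Ms4a1 (0.84), the B cell antigen CD20, and Cxcr4 (0.84), the chemokine receptor that retains leukocytes in marrow. Fchsd2 (0.81), Unkl (0.81), Flot1 (0.80), Glcci1 (0.80) and Reln (0.79) completed it.

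Of other granulocyte genes, taken from lists by granule class, Clec12a and Lcn2 alone were called between NP.P and NP rats. The azurophil granule list held 10 genes, but only Lyz2, Srgn and Clec12a had a probe set by the rule. Mpo, Elane, Prtn3 and Ctsg were thus not measured. Of the 3 tested genes 1 was lower, Clec12a, listed there though a surface lectin receptor of myeloid cells (-0.61, SE 0.17, adjusted p = 0.0914). The median of the 3 was -0.16. Of 9 tested specific and gelatinase granule genes other than those above, 1 was lower, Lcn2, a siderophore-binding protein (-0.35, adjusted p = 0.0774), with a median of -0.23. Limma called 0 of 8 neutrophil cytosol and surface genes (median -0.25, 4 with an unadjusted p under 0.05). It called 0 of 8 regulators of granulocyte development (median -0.09, 2 with an unadjusted p under 0.05). Of 4 other stefins and cystatins it called 0 (median -0.12, 1 with an unadjusted p under 0.05). The methods' unequal-variance test called 0 in these lists and 0 in every other list, those with limma calls included. Over all tested probe sets it called only 10 in this comparison. Differences were negative in 3 of 3, 7 of 9, 7 of 8, 5 of 8 and 4 of 4 genes of the lists in this paragraph, taken in order.

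Some genes of the other granule cell types were lower as well. Of 11 tested mast cell and basophil genes other than Mcpt8, 3 were called lower in the NP.P comparison, with a median of -0.47, and 10 of the 11 differences were negative. They were Cpa3, the mast cell carboxypeptidase (-0.56, adjusted p = 0.0265), Cma1, a chymase (-0.58, adjusted p = 0.0799), and Mcpt10 (-0.58, adjusted p = 0.094). Summed over the 18 such genes with a probe set, signals were 17648 to 23863 on NP.P arrays and 25521 to 27921 on NP arrays, without overlap. The brightest gene of that sum was Fcer1g, which averaged 11220 in NP.P rats and 13639 in NP rats and was not called (limma adjusted p = 0.166). Mcpt4, Kit, Il4 and Fcer1a, the alpha chain of the IgE receptor, were among the genes of this list below the filter.

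Of 3 tested eosinophil genes, 2 were lower in NP.P rats and 1 was higher. Epx, eosinophil peroxidase, differed by -0.82 (adjusted p = 0.0265) and Prg2, the major basic protein, by -0.79 (adjusted p = 0.032). Alox15, a lipoxygenase that macrophages also make in mice, differed by 0.63 (adjusted p = 0.0104). The summed signals of the list, 57817 to 77785 in NP.P rats and 54127 to 71854 in NP rats, overlapped. Alox15 was the brightest gene of that sum, averaging 43665 in NP.P rats and 28202 in NP rats.

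**Figure D4:**
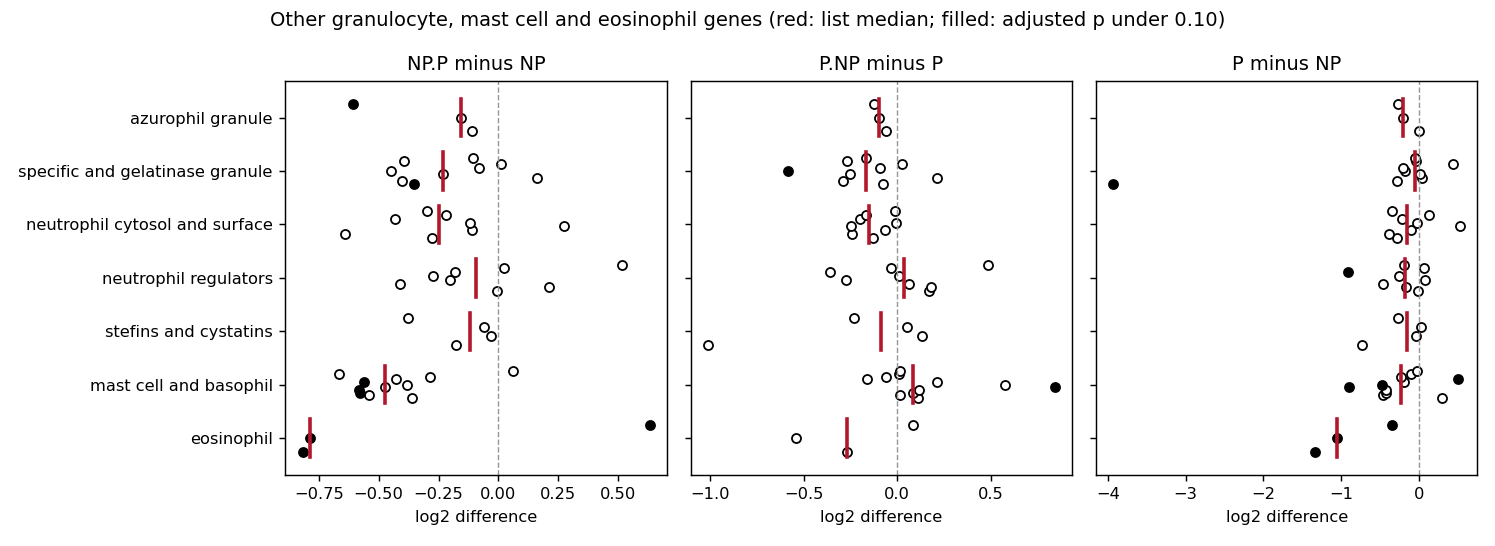
Log2 difference of single genes (points, filled for an adjusted p under 0.10) in lists of granulocyte, mast cell and eosinophil genes other than the 6, with a red line at each list's median, in 3 comparisons. The horizontal axes differ between panels. The mast cell and basophil median is -0.47 in the NP.P comparison and 0.08 in the P.NP comparison.

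Between P.NP and P rats fewer genes of these lists were called, though the difference between the 2 comparisons was not tested for the lists. The mast cell and basophil median was 0.08, with 1 of 11 genes higher, Tpsab1, a tryptase (0.84, adjusted p = 0.0773). Limma called 0 of 3 eosinophil genes, 1 of which, Prg2, had an unadjusted p under 0.05 (-0.54, adjusted p = 0.351). The methods' unequal-variance test called 0 of all tested probe sets in this comparison, so its 0 for this list carries no information. Cybb, the membrane subunit of the phagocyte oxidase, was the 1 specific and gelatinase granule gene called (-0.58, adjusted p just under 0.10). Stfa3, a neighbour of Stfa2l2 in the stefin cluster, differed by -1.01 (SE 0.35, adjusted p = 0.441) with signals averaging 111 ± 54.1 in P.NP rats and 190.0 ± 21.7 in P rats (SD, n = 5 each), close to the filter at 169.7.

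Between the parental strains, P rats had lower signals of Lcn2 and of several genes of other granule cells. Lcn2 averaged 902 ± 91.0 in P rats and 13720 ± 978 in NP rats (SD, n = 5 each), a log2 difference of -3.93 (adjusted p = 6.32e-16), and its signals in the congenic strains were near those of the background strain, at 10795 ± 1193 in NP.P rats and 856 ± 79.6 in P.NP rats. All 3 tested eosinophil genes, Epx (-1.34, adjusted p = 2.94e-05), Prg2 (-1.05, adjusted p = 0.000528) and Alox15 (-0.34, adjusted p = 0.0964), and Myb, a transcription factor of progenitors (-0.91, adjusted p = 0.00217), were lower in P rats too. Of the mast cell and basophil genes Tpsab1 (-0.89, adjusted p = 0.00489) and Tpsb2 (-0.47, adjusted p = 0.0597) were lower and Ms4a2, the beta chain of the IgE receptor, was higher (0.51, adjusted p = 0.048). Stfa2l2 and Lcn2 thus differed between these strains in opposite directions.

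Markers of other cells in the bone moved with the NP.P comparison. All 10 erythroid genes had positive differences (2 called higher, median 0.23), and their summed signals were 215317 to 234446 in NP.P rats and 176496 to 208393 in NP rats, without overlap. Of 6 megakaryocyte and platelet genes 4 were lower (median -0.46), with sums of 33738 to 43844 in NP.P rats and 46043 to 55280.6 in NP rats. Of 4 B lymphoid genes 2 were lower (median -0.42), with sums of 13318 to 18869 in NP.P rats and 15965 to 20799 in NP rats. Of 5 adipocyte genes 2 were higher (median 0.40), of 9 macrophage genes 1 was lower (median -0.22) and of 8 cell division genes 1 was higher (median 0.14). Limma and the methods' unequal-variance test called 0 of 8 osteoblast and bone matrix genes (median 0.06), 0 of 4 osteoclast genes (median 0.15) and 0 of 7 skeletal muscle genes (median 0.15), and none of these genes had an unadjusted p under 0.05. Of 4 T and NK lymphoid genes 0 were called by either test, and 2 had an unadjusted p under 0.05 (median -0.27). The unequal-variance test called 0 in every list here, those with limma calls included. Bone matrix genes were bright on all arrays, with sums between 265693 and 352279, and no list summed to 0 on any array. The part of these cell types in the lower signals of Mcpt8, Stfa2l2 and Fcnb was not tested. In the P.NP comparison the erythroid sums were 166255 to 183777 in P.NP rats and 176907 to 203192 in P rats, with overlap and a median difference of -0.11.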

How the data were processed

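Femur RNA of 20 rats (5 NP.P, 5 P.NP, 5 P and 5 NP) was measured with 1 array per rat. The authors analysed the array images with GCOS 1.2 and deposited MAS5 signals, intensities on a linear scale that were scaled to a common trimmed mean per array; the robust multichip average values and detection calls of their own tests were not used here. A probe polymorphism between strains or a near-identical transcript can change such an intensity without a change of the transcript itself. The table holds 31099 probe sets, including 57 controls. A single gene symbol was given for 20826 of the rest, several symbols for 436 and no symbol for 9780; names were used only where the symbol was single. A probe set shared by several mast cell protease genes, Mcpt8 among them, was therefore not read.

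The 190 signals under 1 were set to 1 and all values were taken to log2. Dim probe sets, those whose mean log2 value was under the 40th percentile (169.7 as a signal), were dropped. All 20 arrays entered 1 limma fit (version 3.58.1, R 4.3.3) with a mean per strain, 16 residual and 2.78 prior degrees of freedom, and p values were adjusted by Benjamini-Hochberg over the 18625 probe sets at a false discovery rate of 10%. The fit was tested on simulated data. The alternatives were quantile normalization, an offset of 21.7 before the log, dropping the filter or raising it to the 60th percentile, a mean-variance trend, the unequal-variance test of the study's methods, pairwise fits, a 5% false discovery rate, the replicate number as a block, leaving out each array, and reading a gene at its brightest probe set. Hybridization and scan dates were not used here.

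All 10 genes were to be named whatever their values. Of other granulocyte, mast cell, basophil and eosinophil genes, those called were named, at most 6 a list by adjusted p, with at most 2 examples from other cell lists, and the 8 genes most like the mean of the 6 by each of 2 measures. Stfa3, 1 Camp array of P.NP, the genes below the filter and the extra strain pairs were singled out after their values were seen. The genes, the lists and the tests were chosen with earlier results of these data known. Promoter sequences and positions came from RefSeq tables of GRCr8, which matched 5 of the 6 measured genes for promoters. Figures were drawn with Python 3.11.15 and matplotlib 3.10.9.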

Additional observations from a re-analysis of the deposited data

Results flagged for a closer look

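For Camp, the third P.NP array stood away from the other arrays of its strain. Its signal was 16605, and its gap to the nearest array took up 0.716 of the strain's log2 range, just over the critical value of 0.71 for 5 samples. Such a gap is expected by chance in about 1 of 20 groups, and 24 groups of 5 arrays were examined. Without that array the Camp difference between P.NP and P rats was -0.41 (limma adjusted p = 0.136) and that between P.NP and NP rats was -0.53 (limma adjusted p = 0.00163).

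The difference that went with the P segment was not the same on the P and the NP backgrounds for Stfa2l2 and Fcnb, by a test of the interaction itself. That test cannot tell this apart from a difference of both congenic strains from both inbred strains. The interaction was 1.50 on the log2 scale for Stfa2l2 and 0.652 for Fcnb. For Stfa2l2 the interaction ranked first by p among all tested probe sets in 23 of 26 alternatives, and second at worst.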

How the results depend on the processing

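The labels do not say whether arrays with the same replicate number were handled together, and the correlations did not settle it. Over 30 pairs of arrays with the same number in different strains the median correlation of deviations was 0.023 and 5 pairs were above 0.1. Over 120 pairs with different numbers the median was -0.004 and 11 pairs were above 0.1. Of 20 arrays, 9 were closest to their own number. With the number as a block, the counts of called genes were 3 in NP.P minus NP, 1 in P.NP minus P, 1 in P minus NP, 3 in the background contrast, 1 for the P segment, 2 for the interaction and 4 in the F test, the same counts as without it.

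The methods' unequal-variance test called 0 genes of the 6 in NP.P minus NP, where adjusted p was 0.224 for Fcnb, 0.213 for Mcpt8 and 0.183 for Stfa2l2, and 0 in P.NP minus P, where it was 0.277 for Stfa2l2. At an unadjusted p under 0.05 that test gave 5 and 1 of the 6, and over all probe sets it called 10 and 0. Without a filter the P segment count was 0 (Mcpt8 adjusted p = 0.104) and the interaction count 1. The interaction count was 4 with the filter at the 60th percentile or a mean-variance trend, and 1 at a false discovery rate of 5%. Leaving out 1 array gave 3 to 4 called genes in NP.P minus NP, 1 to 1 in P.NP minus P and in P minus NP, 2 to 3 in the background contrast, 1 to 1 for the P segment, 1 to 4 for the interaction and 4 to 5 in the F test. The interaction of Fcnb lost its call without NP.P arrays 2 or 4, P.NP arrays 2, 4 or 5, P arrays 1, 4 or 5, or NP arrays 3 or 4 (adjusted p = 0.1 to 0.128), and without P array 3 the count was 4. The Mcpt8 background call was lost without any 1 of 12 arrays. The cause of these changes was not tested.

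Signs turned only for differences that were not called and lay near 0. With quantile normalization S100a8 and S100a9 differed by -0.042 and -0.049 for the P segment, and Camp by 0.0084 in P.NP minus NP.P. Across left-out arrays, S100a9 ranged between -0.036 and 0.072 in P minus NP, between -0.016 and 0.039 in the background contrast, between -0.021 and 0.034 for the P segment and between -0.037 and 0.049 in P.NP minus NP.P. S100a8 ranged between -0.028 and 0.040 and Camp between -0.058 and 0.024 for the P segment, and Fcnb between -0.043 and 0.044 in P.NP minus NP. Pairs of genes that differed numbered 24 with quantile normalization and 25 with the offset, as against 25. Array signals carry no read depth, and 5 arrays a strain limit how small a difference could be detected.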
